A study of Rattus norvegicus with 86 samples.

Results

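Solute carrier (Slc) genes were measured by mRNA sequencing of the prelimbic cortex (PL) of 80 Heterogeneous Stock (HS) rats. The members were all genes of the expression table whose identifier is paired, in the study's lists of genes with expression quantitative trait loci (eQTLs), with a name that starts with Slc and a digit or with Slco. Of 65 such names, 63 were in the table of 17250 genes, and Slc16a5 and Slc7a13 were not. Only 3292 identifiers of the table (19.1%) could be paired with a name. The first list, as read here, covered only the infralimbic cortex and named 36 of the 63 members. The second, of region-specific eQTLs, named 29, and 2 members were in both. Genes with an eQTL that neither list named could not be members. The 63 therefore need not be all of its Slc genes, nor all of those with an eQTL. Because a gene had to be listed with an eQTL in these same rats, in PL or in another brain region, to carry a name, how far the members spread between rats is given as a description only.

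HS rats are an outbred stock descended from 8 inbred founder strains, and the rats were naive to drugs and behavioural tests. There were 40 males and 40 females, with 1 library of polyadenylated RNA per rat from tissue of both hemispheres, so p-values measure the spread between rats. The labels place 14 rats in rat batch 2 (3 females and 11 males), 23 in batch 3 (13 and 10), 26 in batch 4 (15 and 11), 1 female in batch 5 and 16 in batch 6 (8 and 8). The labels do not say what sets the batches apart. A further 6 of the 86 PL samples carry the label of removed samples and were not used.

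Solute carriers are membrane proteins that move ions, metals, sugars, amino acids, nucleotides and organic ions across cell and organelle membranes, either down a gradient or coupled to sodium, protons or chloride. In cortex they load transmitters and zinc into synaptic vesicles, clear transmitters from the extracellular space, set neuronal pH, calcium and chloride, and feed mitochondria. Many are enriched in 1 cell type, and in pieces of whole tissue fewer cells of a type and less RNA per cell cannot be told apart.

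Values are log2 of an adjusted read count plus 1. Read counts rise with transcript length and no lengths were used, so the values compare rats for 1 gene and do not order the genes. Summed adjusted counts ran from 16957388 to 20613398 per library. Of the 63 members, 59 had reads in all 80 rats and 51 had a mean log2 value of at least 5. Neurod6, a marker of cortical excitatory neurons, lay between 10.74 and 11.50 in the 80 rats, and Slc32a1, a member that marks inhibitory neurons, between 9.55 and 10.69. Only 6 of 38 cell type markers sought could be matched to an identifier.

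The libraries differed in 5.8S rRNA, which ran from 8.06 to 10.93 in batch 2, 1.58 to 4.81 in batch 4 and 1.58 to 4.86 in batch 6 on the log2 scale. In batch 3 it ran from 1.58 to 13.04, and 4 rats of that batch lay under 6 (highest 5.67) while the others were at 7.52 or more. The main counts, and values that moved most without these 4 rats, are also given without them.

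Upstream sequences of the members that differed most between batches, in each direction, show what lies before their starts. RefSeq (build GRCr8) holds a window of 250 bases upstream of the annotated start for 53 of the 63 members. The windows below run 5′ to 3′ on the gene's strand, and capitals mark matches on either strand to 4 short motifs. These were the TATA box searched as TATAAA, the box named CCAAT after its own letters, the GC box with the letters GGGCGG, and the cyclic AMP response element in its full form, TGACGTCA.
Slc4a8 (chr7:133742580-133742829, plus strand): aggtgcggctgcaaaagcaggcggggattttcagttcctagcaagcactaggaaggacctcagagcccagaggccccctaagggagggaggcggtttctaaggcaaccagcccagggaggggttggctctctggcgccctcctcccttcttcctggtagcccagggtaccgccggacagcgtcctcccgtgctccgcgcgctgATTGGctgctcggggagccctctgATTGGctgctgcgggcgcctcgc
Slc7a14 (chr2:113993531-113993780, plus strand): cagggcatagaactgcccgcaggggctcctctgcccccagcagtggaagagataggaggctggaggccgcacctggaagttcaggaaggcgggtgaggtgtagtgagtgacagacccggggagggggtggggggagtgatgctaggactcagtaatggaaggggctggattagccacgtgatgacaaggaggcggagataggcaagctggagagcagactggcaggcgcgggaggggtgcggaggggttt
Slc32a1 (chr3:167686995-167687244, plus strand): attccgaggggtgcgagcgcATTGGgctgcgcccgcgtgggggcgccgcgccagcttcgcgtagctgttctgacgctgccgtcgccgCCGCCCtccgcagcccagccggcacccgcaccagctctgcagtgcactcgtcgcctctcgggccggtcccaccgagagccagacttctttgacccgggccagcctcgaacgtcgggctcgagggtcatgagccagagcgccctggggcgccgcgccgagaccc
Slc22a17 (chr15:32358781-32359030, minus strand): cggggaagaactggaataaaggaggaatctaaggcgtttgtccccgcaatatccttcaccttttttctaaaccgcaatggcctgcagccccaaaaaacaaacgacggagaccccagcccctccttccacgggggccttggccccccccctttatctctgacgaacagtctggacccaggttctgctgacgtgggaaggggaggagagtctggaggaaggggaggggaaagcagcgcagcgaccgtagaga
Slc4a8 and Slc7a14 were the members with a window that were raised most in batches 4 and 6, and Slc32a1 and Slc22a17 those lowered most. The Slc4a8 window held 2 CCAAT boxes, that of Slc32a1 held 1 CCAAT box and 1 GC box, and those of Slc7a14 and Slc22a17 held none of the 4 motifs. Over the 53 windows a GC box was found in 24, a CCAAT box in 19, a TATA box in 3 and a cyclic AMP response element in 1. Over all 33469 windows of the build the shares were 30.5%, 34%, 12.9% and 1.59%. A GC box stood in 9 of the 14 windows of members lower in batches 4 and 6 and in 2 of the 13 of members higher there, while the median GC content was 61.4% and 61.2% in these groups, 57.2% over the 53 members and 51.2% over all windows. These are matches of letters, and no binding was measured.

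The members fell into 7 classes by what they carry. Transmitter and amino acid transporters made up 13 members. Slc32a1 (ENSRNOG00000015393), which loads GABA and glycine into vesicles, had a median of 10.30 over the 80 rats. Slc17a6, which loads glutamate into vesicles and marks mainly subcortical glutamatergic neurons, ranged from 6.32 to 8.41 with a median of 7.67. Its SD of 0.52 was larger than that of 94.7% of the 1907 genes whose mean lay within 0.5 of its own. Slc1a1, a neuronal glutamate and cysteine transporter, ranged only from 10.88 to 11.36 (SD 0.11). Slc6a5, the glycine transporter of glycinergic endings, ranged from 5.29 to 6.79. The heavy chain Slc3a2, which pairs with amino acid exchangers, had the highest mean of the class, 11.49, and Slc38a4, a sodium-coupled amino acid transporter, the lowest, 4.69.

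Transporters of sodium, calcium, protons, chloride and bicarbonate made up 11 members. The highest mean in the class was that of Slc4a10, a sodium-coupled bicarbonate transporter of neurons and choroid plexus (12.73 ± 0.20, SD), and the lowest that of its relative Slc4a5 (3.03 ± 0.77). Slc9b1, of the sodium and proton exchangers, ranged from 1.00 to 5.04. Slc8a2 and Slc8a3, which trade sodium for calcium at the plasma membrane, had medians of 12.45 and 8.65. Slc4a8, a sodium-driven chloride and bicarbonate exchanger, spread more than 98.7% of the 2400 genes of similar mean, with an SD of 0.59 and a range from 6.89 to 9.54.

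The 8 metal transporters ranged in mean from 2.23 for the zinc transporter Slc30a2 to 11.81 for Slc30a3, which fills synaptic vesicles with zinc. The 7 members of the mitochondrial carrier family ranged from 1.22 for Slc25a21, an oxodicarboxylate carrier listed at 0 in 23 rats, to 11.71 for Slc25a23, an ATP-magnesium and phosphate carrier. Sugar and nucleotide sugar transporters made up 8 members, with means from 5.77 for Slc2a10, of the glucose transporter family, to 10.72 for Slc35b4, a nucleotide sugar transporter. The 4 phosphate and sulphate transporters ran from 4.34 for Slc34a2 to 11.23 for Slc20a1, both phosphate transporters. The 12 transporters of organic ions, monocarboxylates, lipids, peptides, nucleosides and vitamins ran from 1.53 for the organic cation transporter Slc22a2 to 13.88 for Slc22a17, known as a receptor for lipocalin 2.

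The largest SDs were those of Slc22a2 (1.04), Slc27a2 (0.97), Slc25a21 (0.92), Slc30a2 (0.84) and Slc9b1 (0.81), members with few reads. Slc22a2 was at 0 in 16 rats, Slc27a2, a fatty acyl-CoA synthetase, in 5 and Slc30a2 in 4. Against genes of similar mean these 5 were unremarkable, with SDs larger than 77.1%, 64.2%, 40.3%, 22.4% and 75.4% of them in that order. On that footing the widest members after Slc4a8 were Slc7a14, a lysosomal relative of the cationic amino acid transporters (97.6%), and Slc28a2, a nucleoside transporter (96.1%). The narrowest were Slc24a1 (3.9%), Slc22a23 (4.0%), the copper transporter Slc31a1 (4.2%) and Slc20a1 (4.8%).

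A mixture of 2 normal distributions was fitted to each member to look for rats at 2 separate levels, and 0 of the 63 met all the criteria (a drop of 10 in the Bayesian information criterion, means over 4 component SDs and 1 log2 unit apart, and 10% of rats in the smaller group). Slc4a8 came closest, with means 1.07 apart at 3.67 component SDs, 51 rats high and 29 low. Once batch was removed as well, its mixture no longer improved on a single distribution. Slc35c2, a relative of the GDP-fucose transporter, split into 71 rats and 9 lower ones, but by only 0.77.

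Of the members, 7 are in a list of the strongest region-specific eQTLs, under PL alone. They are Slc32a1, Slc38a4, the glucose 6-phosphate transporter Slc37a4, the coenzyme A carrier Slc25a42, the mitochondrial iron carrier Slc25a28, the folate transporter Slc46a1 and Slc30a2. The list of region-specific eQTLs holds only 29 of the 63 members. Other members may also have an eQTL in PL, or in PL alone. Slc37a4 ranged from 7.98 to 8.92 with a median of 8.57, and Slc46a1 from 6.09 to 7.31 with a median of 6.79. Slc25a42 ranged from 9.55 to 10.29 and Slc25a28 from 8.85 to 9.54, narrow ranges beside the 2.32 to 5.91 of Slc38a4 and the 0.00 to 3.91 of Slc30a2, which have fewer reads.

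**Figure D1:**
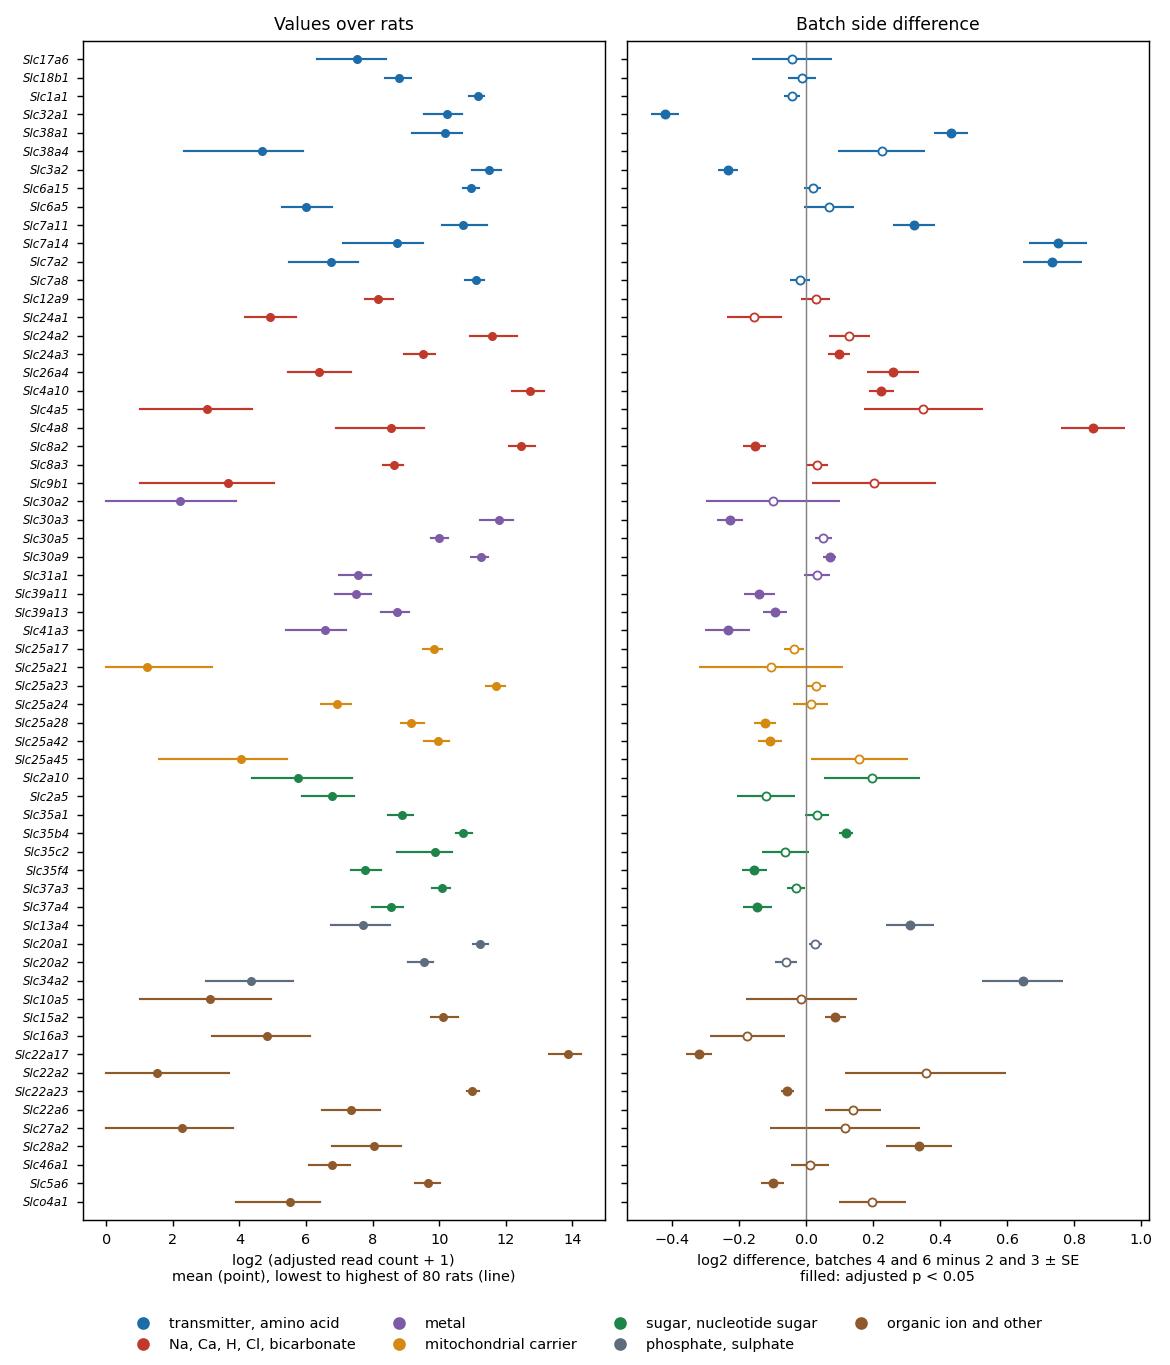
Left, mean (point) and range over 80 rats (line) of each of the 63 members in log2 (adjusted count + 1), grouped and coloured by class. Right, the log2 difference of batches 4 and 6 minus batches 2 and 3 with its SE, filled where the adjusted p is under 0.05; of the 28 filled points 14 lie to either side of 0 in this fit of both sexes, from -0.42 for Slc32a1 to 0.86 for Slc4a8.

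Between males and females, with batch in the model, 0 of the 63 members passed an adjusted p of 0.05 (limma, Benjamini-Hochberg over 17250 genes), where 0.365% of all genes did. At an unadjusted p under 0.05 there were 4 members, where 7.82% of all genes passed. Slc22a6, an organic anion transporter of kidney, choroid plexus and meninges, ran from 6.60 to 8.21 in males (median 7.49) and from 6.48 to 8.01 in females (median 7.18). The sexes overlapped over most of that range, and the fitted male minus female difference was 0.28 (SE 0.08, limma adjusted p = 0.131). Fitted inside each batch it was 0.71 ± 0.14 (SE) for batch 6 (limma adjusted p = 0.0982, so not passed), 0.01 ± 0.17 for batch 2, 0.21 ± 0.17 for batch 3 and 0.18 ± 0.13 for batch 4. Without the 4 batch 3 rats low in 5.8S rRNA the difference was 0.34 and passed (limma adjusted p = 0.0274), the only member to do so.

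Slc6a5 lay between 5.29 and 6.49 in males (median 5.89) and between 5.46 and 6.79 in females (median 6.12). Its male minus female difference was -0.26 (SE 0.07, limma adjusted p = 0.131), negative in each of the 4 batches, from -0.39 in batch 6 to -0.05 in batch 3, and the sexes overlapped. Slc15a2, a peptide transporter, differed by 0.09 (limma adjusted p = 0.353) and the sulphate transporter Slc13a4 by 0.18 (limma adjusted p = 0.473), both with higher fitted values in males. Fitted inside batch 2 the difference was -0.01 for Slc15a2 and -0.18 for Slc13a4, while in batches 3, 4 and 6 it was positive for both. Slc35b4, next in order of p, differed by 0.04 (limma adjusted p = 0.681). The members' median sex difference was -0.0018, against 0.0013 over all genes. The sex difference was also compared between batches 4 and 6 and batches 2 and 3: 0 of 63 members passed with limma, as did 0% of all genes, and 3 had an unadjusted p under 0.05, where 3.94% of all genes did. These 3 were Slc25a28 (0.21, SE 0.06), Slc25a21 (1.10, SE 0.41) and Slc24a2, a calcium exchanger (-0.26, SE 0.12).

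**Figure D2:**
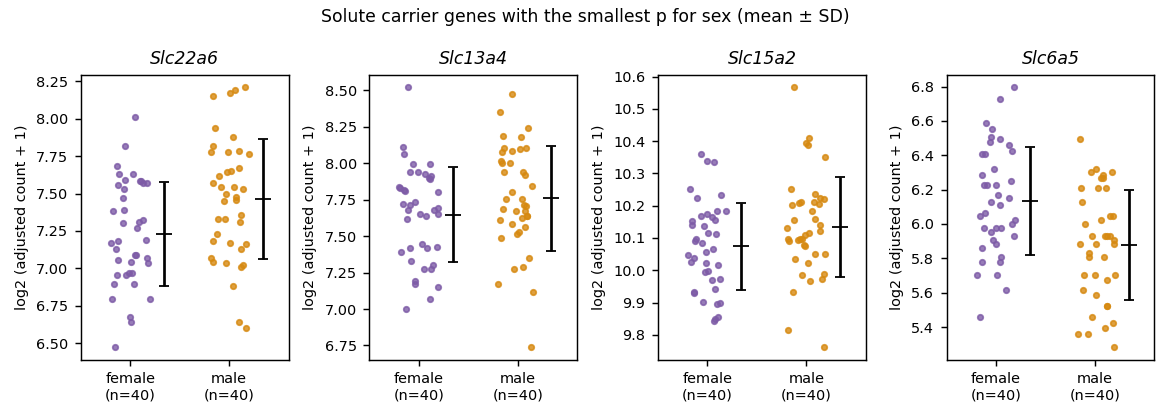
Log2 (adjusted count + 1) of Slc22a6, Slc13a4, Slc15a2 and Slc6a5 in 40 females and 40 males, 1 point per rat, with mean ± SD in black. The sexes overlap in all 4 panels; male medians are 7.49 against 7.18 for Slc22a6 and 5.89 against 6.12 for Slc6a5.

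Between rat batches, 31 of 63 members differed (limma F-test with sex in the model, adjusted p under 0.05), against 59.4% of all genes. Without the 4 rats low in 5.8S rRNA 34 did, against 60.8% of all genes. Most of the difference lay between batches 2 and 3 on one side and 4 and 6 on the other. In that contrast 28 members (44.4%) passed, 14 higher and 14 lower in batches 4 and 6, where 55.4% of all genes passed, 28.8% higher and 26.6% lower. Within 1 sex fewer passed and the split was uneven, with 12 higher and 5 lower in females only and 12 higher and 6 lower in males only. Over all genes 3047 were higher and 3021 lower in females only (35.2% passed), and 3756 and 3319 in males only (41%). The members' median difference was 0.03 on the log2 scale, against 0.01 for all genes, a value that joins members of both directions. Without the 4 rats, 31 members passed in that contrast, where 56.7% of all genes did. Neighbouring batches of one side differed little: 2 members passed for batch 3 against 2, where 5.7% of all genes did, and 4 for batch 6 against 4, where 6.23% did. For batch 4 against 3 there were 28, where 51.7% of all genes passed.

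Among transmitter and amino acid transporters 4 were higher and 2 lower in batches 4 and 6, and 7 did not pass. Slc7a14 (ENSRNOG00000028097) ran from 7.10 to 8.95 in batch 2 (median 8.23), 7.61 to 9.51 in batch 3 (8.52), 8.63 to 9.49 in batch 4 (9.02) and 8.46 to 9.38 in batch 6 (9.10). The medians stood apart, although single rats of batches 2 and 3 reached the range of batches 4 and 6. Among them were the 4 low in 5.8S rRNA, at 8.95 to 9.51. The difference was 0.75 (SE 0.09, a 1.68-fold change, limma adjusted p = 9.02e-12), and 0.82 without those 4 rats.

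The cationic amino acid transporter Slc7a2 rose by 0.73 (SE 0.09, limma adjusted p = 4.05e-11), from medians of 6.33 and 6.36 in batches 2 and 3 to 7.04 and 7.16 in batches 4 and 6. Slc38a1, a glutamine transporter of neurons, rose by 0.43 (SE 0.05, limma adjusted p = 2.26e-11), with medians of 9.92, 9.97, 10.36 and 10.30 in batches 2, 3, 4 and 6. Slc7a11, which exchanges cystine for glutamate, rose by 0.32 (limma adjusted p = 7.04e-06). All of these overlapped between batches.

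The vesicular GABA transporter went the other way. Slc32a1 ran from 10.23 to 10.69 in batch 2 (median 10.49), 9.97 to 10.67 in batch 3 (10.49), 9.62 to 10.41 in batch 4 (10.04) and 9.55 to 10.32 in batch 6 (10.13). Batches 4 and 6 lay mostly below batches 2 and 3 with some overlap, and Slc32a1 had the smallest batch F-test p of any member (limma adjusted p = 2.96e-12). The difference was -0.42 (SE 0.04, 0.747 times the level, limma adjusted p = 1.12e-13). Slc3a2 had medians of 11.56, 11.62, 11.39 and 11.34 in batches 2, 3, 4 and 6 and fell by 0.23 (limma adjusted p = 2.78e-10), while its partner Slc7a11 rose and its partner Slc7a8, a large neutral amino acid exchanger, had a difference of -0.02 (limma adjusted p = 0.627). Slc17a6 (-0.04), Slc1a1 (-0.04), Slc6a5 (0.07) and Slc6a15 (0.02), a neutral amino acid transporter, did not pass.

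**Figure D3:**
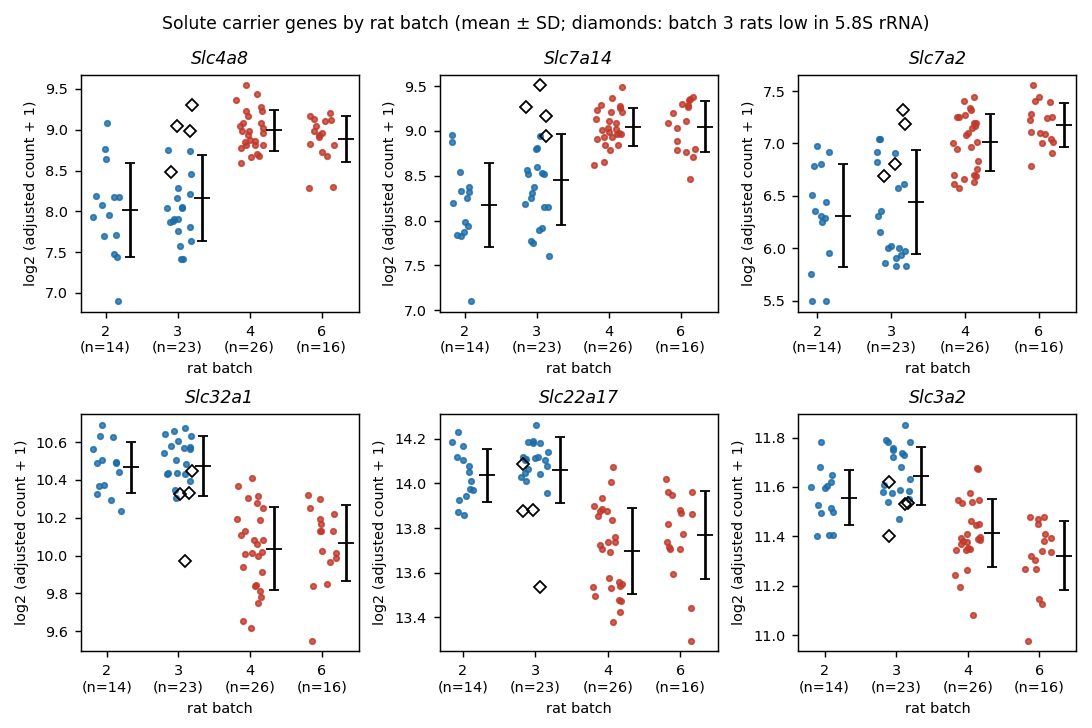
Log2 (adjusted count + 1) by rat batch for the 3 transporters raised most in batches 4 and 6 (top) and for 3 that were lower there (bottom), 1 point per rat, mean ± SD in black; diamonds are the 4 batch 3 rats low in 5.8S rRNA. For Slc4a8 these 4 rats lie at 8.49 to 9.30, above the batch 3 median of 8.04.

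Of the ion transporters 4 of 11 were higher in batches 4 and 6 and 1 lower. Slc4a8 (ENSRNOG00000028879) ran from 6.89 to 9.09 in batch 2 (median 8.01), 7.42 to 9.30 in batch 3 (8.04), 8.59 to 9.54 in batch 4 (8.97) and 8.28 to 9.20 in batch 6 (8.95). A few rats of batches 2 and 3 reached the range of batches 4 and 6. Its difference, 0.86 (SE 0.10, 1.81-fold, limma adjusted p = 3.11e-12), was the largest of the 63, and 0.93 without the 4 rats. Slc4a10 rose by 0.22 (limma adjusted p = 2.13e-07), the chloride and bicarbonate exchanger Slc26a4 by 0.26 and the calcium exchanger Slc24a3 by 0.10, while Slc8a2 fell by 0.15 (limma adjusted p = 5.37e-05). Slc26a4 also differed between batches 6 and 4, by 0.45 (SE 0.11, limma adjusted p = 0.00508), with medians of 6.77 and 6.31.

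Of the 8 metal transporters 4 were lower, 1 was higher and 3 did not pass. Slc30a3 had medians of 11.94, 11.90, 11.69 and 11.69 in batches 2, 3, 4 and 6 and fell by 0.23 (SE 0.04, limma adjusted p = 9.21e-07). The magnesium transporter Slc41a3 fell by 0.23, and the zinc transporters Slc39a11 and Slc39a13 by 0.14 and 0.09. Slc30a9 rose by 0.07 (limma adjusted p = 0.00238), a small difference carried by a narrow spread (SD 0.09). Of the mitochondrial carrier family 0 of 7 were higher and 2 lower, Slc25a28 (-0.12) and Slc25a42 (-0.11).

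Of the 4 phosphate and sulphate transporters 2 were higher. Slc34a2 rose by 0.65 (SE 0.12, limma adjusted p = 3.7e-06), with medians of 3.81, 4.09, 4.58 and 4.95 in batches 2, 3, 4 and 6, at few reads. Slc13a4 rose by 0.31 (limma adjusted p = 0.000159). Among sugar transporters Slc35b4 was higher (0.12, limma adjusted p = 4.21e-07), and Slc35f4 and Slc37a4 were lower (both -0.15).

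In the organic ion class 2 of 12 were higher and 3 lower. Slc22a17 (ENSRNOG00000016414) ran from 13.86 to 14.23 in batch 2 (median 14.03), 13.53 to 14.26 in batch 3 (14.10), 13.38 to 14.07 in batch 4 (13.71) and 13.30 to 14.02 in batch 6 (13.80). The ranges overlapped while the medians of batches 4 and 6 lay under the lowest rat of batch 2. It fell by 0.32 (SE 0.04, limma adjusted p = 6.4e-11). The nucleoside transporter Slc28a2 rose by 0.34 (limma adjusted p = 0.00223) and also differed between batches 3 and 2, by -0.46 (limma adjusted p = 0.0417). The other member to differ between batches 3 and 2 was Slc7a8 (-0.16, limma adjusted p = 0.0207). Those that differed between batches 6 and 4 beside Slc26a4 were Slc39a13 (0.20), the vitamin transporter Slc5a6 (0.17) and Slc12a9, of the cation and chloride cotransporter family (0.20).

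The way members varied together was examined in the 79 rats of batches 2, 3, 4 and 6 after removing sex and batch. Of 1953 pairs of members, 286 correlated (permutation test within batches, adjusted p under 0.05), 173 positively and 113 negatively, and 241 without the 4 rats. All pairs of genes were not put through the permutation test, so their shares are given by the size of r. The smallest r of a pair that passed was 0.263 in size, a size reached by 20.2% of the pairs of members and 20.4% of all pairs of genes. Beyond 0.5 in size the shares were 2.71% and 3.42%. In the pairs described next the p-value was 1e-05 before adjustment, the smallest that 100000 permutations can give, and the adjusted p was 0.000331.

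A first set of members held the 3 closest pairs. Slc38a1 and Slc7a14 had r = 0.866 (rho = 0.845) by permutation test, 0.837 without the 2 farthest rats, 0.845 without the 4 low in 5.8S rRNA, and 0.635 to 0.935 within batches. Slc38a1 and Slc4a8 had r = 0.851 (rho = 0.825), 0.816 without the 2 farthest rats and 0.617 to 0.914 within batches. Slc4a8 and Slc7a14 had r = 0.826 (rho = 0.774), 0.792 without the 2 farthest rats and 0.479 to 0.913 within batches. A glutamine transporter, a bicarbonate exchanger and a lysosomal protein thus rose and fell together across rats, and all 3 were higher in batches 4 and 6. Slc7a2 joined them less evenly: its r with Slc38a1 was 0.681, but -0.153 within batch 4. Slc24a2, whose batch side difference did not pass (limma adjusted p = 0.0641), had r = 0.71 with Slc38a1 and 0.691 with Slc4a8. Slc38a1 also ran with Slc8a2 (r = 0.515), which was lower in batches 4 and 6.

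A second set centred on Slc22a17. Its r with Slc32a1 was 0.819 (rho = 0.79), 0.772 without the 2 farthest rats, and 0.277 in batch 2 against 0.866 to 0.9 in the other batches. Slc22a17 also correlated with Slc39a13 (r = 0.667), Slc5a6 (0.663) and Slc3a2 (0.657), all lower in batches 4 and 6. Its r was 0.57 with Slc46a1 and 0.51 with Slc25a23, which did not pass between batch sides. With Slc25a23 it was -0.311 in batch 2 and 0.177 in batch 3, against 0.767 in batch 4 and 0.806 in batch 6. Slc30a3 and Slc32a1, which mark zinc-releasing glutamatergic and inhibitory endings, had r = 0.654, although 0.0109 in batch 2.

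The bicarbonate transporter Slc4a10 and the zinc transporter Slc30a9 formed a further pair (r = 0.741, rho = 0.714, 0.665 to 0.845 within batches). Both ran opposite to Slc22a17, with r = -0.64 for Slc4a10 and r = -0.662 for Slc30a9, negative within every batch.

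**Figure D4:**
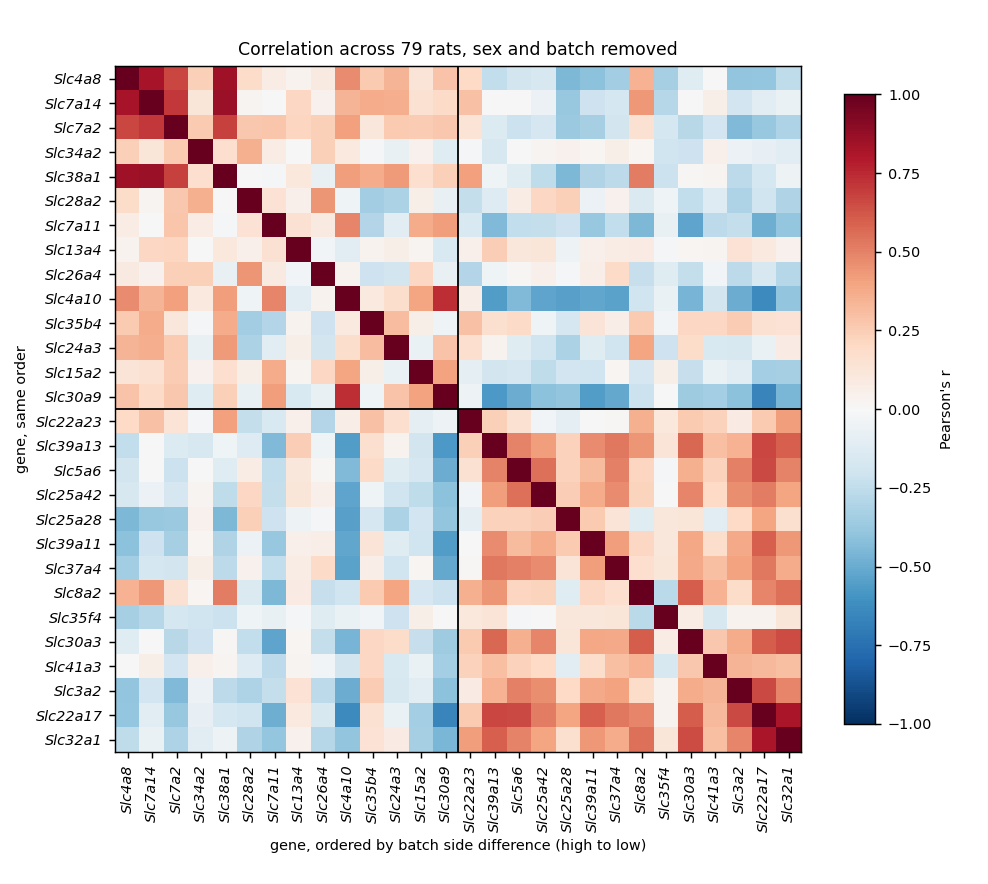
Pearson's r across 79 rats, after removing sex and batch, between the 28 members that differed between batch sides, ordered from the highest to the lowest batch difference on both axes; the black lines divide the 14 higher from the 14 lower. Red blocks hold Slc4a8, Slc7a14, Slc7a2 and Slc38a1 at top left and Slc22a17, Slc32a1 and Slc3a2 at bottom right; the bluest cell is Slc22a17 with Slc30a9 at -0.662.

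Of 12 pairs chosen for known relations, 4 passed the permutation test with adjustment over the 12. Slc4a8 and Slc4a10 had r = 0.474 (rho = 0.479, adjusted p = 0.00084), 0.52 without the 2 farthest rats, 0.373 without the 4 low in 5.8S rRNA (adjusted p = 0.0148), and 0.105 to 0.654 within batches. The calcium exchangers Slc24a2 and Slc24a3 had r = 0.402 (rho = 0.401, adjusted p = 0.00624), 0.299 without the 2 farthest rats, with 0.0232 in batch 3 and 0.73 in batch 2. Slc22a6 and Slc13a4, both of barrier tissues, had r = 0.316 (rho = 0.311, adjusted p = 0.0203), 0.304 without the 2 farthest rats and 0.0337 to 0.528 within batches. The mitochondrial carriers Slc25a23 and Slc25a24 had r = -0.298 (rho = -0.327, adjusted p = 0.0363), -0.344 without the 2 farthest rats, but 0.143 within batch 3. The last 3 of these pairs also passed without the 4 rats.

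The heavy chain Slc3a2 did not pass with either of its partners. Its r was 0.242 with Slc7a8 and -0.236 with Slc7a11 (both adjusted p = 0.0891 by permutation). Nor did the vesicular transporters Slc17a6 and Slc32a1 (r = -0.0621), the glycine transporter Slc6a5 and Slc32a1 (r = 0.122), the calcium exchangers Slc8a2 and Slc8a3 (r = 0.117) or the phosphate transporters Slc20a1 and Slc20a2 (r = 0.196). With Dcn, a marker of meninges, Slc13a4 had r = 0.217 (permutation adjusted p = 0.12) and Slc22a6 r = -0.0612 (0.61).

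Some members lie close together on a chromosome, here in RefSeq order with at most 20 protein-coding genes between them. Slc2a10 and Slc35c2 lie on chromosome 3 with 6 genes between them. Slc2a10 ranged from 4.39 to 7.38 (median 5.66) and Slc35c2 from 8.74 to 10.38 (median 9.96). They ran in opposite directions (r = -0.592, rho = -0.411, permutation adjusted p = 0.000331 over 1953 pairs), with r = -0.496 without the 2 farthest rats, -0.593 without the 4 low in 5.8S rRNA, and -0.648 to -0.513 within batches. The relation was carried mainly by rats high in Slc2a10 and low in Slc35c2, and rho was smaller than r.

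Of 7 such neighbouring pairs 2 others passed, where 14.6% of all pairs of members did. The members were listed for eQTLs in these same rats, and what part that had in relations between neighbours was not tested. Slc22a17 and Slc7a8, on chromosome 15 with 5 genes between them, had r = 0.486 (rho = 0.416, permutation adjusted p = 0.000331), 0.415 without the 2 farthest rats and 0.226 to 0.758 within batches. Slc30a3 and Slc5a6, on chromosome 6 with 2 genes between them, had r = 0.358 (rho = 0.35, permutation adjusted p = 0.0206), 0.332 without the 2 farthest rats and 0.0453 to 0.526 within batches. Slc38a1 and Slc38a4, paralogs on chromosome 7 with 1 gene between them, had r = -0.0328, and Slc22a6 and Slc3a2, on chromosome 1 with 1 gene between them, had r = 0.187 (permutation adjusted p = 0.301).

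**Figure D5:**
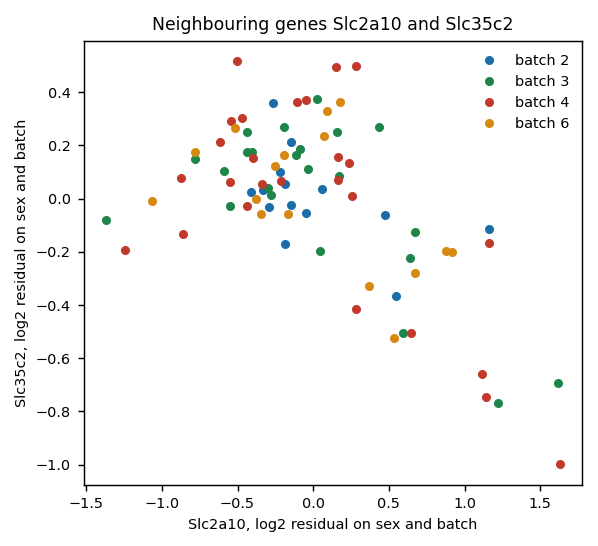
Residual log2 values of Slc2a10 (x) and Slc35c2 (y) after removing sex and batch, 1 point per rat (79 rats), coloured by rat batch. Rats with the highest Slc2a10 have the lowest Slc35c2, and r is -0.592 over all rats and -0.648 to -0.513 within batches.

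Cell type markers moved with some of these members. Like the members, the markers and 5.8S rRNA could be named only because they are listed with an eQTL in these same rats. What part genotype had in their values was not tested. Over 378 tests of 63 members against 5 markers and 5.8S rRNA, 38 passed (permutation test within batches, adjusted p under 0.05), and 21 without the 4 rats. Neurod6 held 22 of them, 6 positive and 16 negative, where 25.9% of all genes correlated with it at the largest unadjusted p that passed among the members. Without the 4 rats it held 15, where 18.4% of all genes did. It ran with Slc30a9 (r = 0.593), Slc4a10 (0.567) and Slc6a15 (0.567), and against Slc22a17 (-0.648), Slc25a42 (-0.643), Slc5a6 (-0.636) and Slc7a8 (-0.598), each with a permutation adjusted p of 0.000344 and r of the same sign within every batch. Slc32a1 ran against Neurod6 too (r = -0.464), but with 0.358 within batch 2.

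The 5.8S rRNA correlated with 12 of 63 members, where 23.8% of all genes did at that p, and with 5 once the 4 rats were left out, where 12.8% did. For Slc4a8 r was -0.435 with them and -0.175 without, for Slc4a10 -0.572 and -0.376, and for Slc39a11 0.526 and 0.426. Dcn ran against Slc32a1 (r = -0.396) and Slc22a17 (r = -0.354), the astrocyte marker Aldh1l1 with Slc22a6 (r = 0.335), and the blood marker Hbb with Slc25a17, a peroxisomal carrier (r = 0.323). Without the 4 rats only 1 member passed with Dcn, and 0 passed with Aldh1l1 or Hbb. The microglial marker P2ry12 passed with 0 members. What part cell makeup or RNA quality had in the batch differences and correlations was not tested.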

How the data were processed

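The authors deposited 1 table of log2 values for 80 PL libraries (log2 of an adjusted count plus 1). Per the submitters' processing notes and the study's methods, reads were trimmed with cutadapt, quantified against Rnor_6.0 with RSEM, and adjusted by upper quartile with DESeq2; 2 to the power of a value minus 1 was a whole number for 100% of values (within 0.1%). RSEM divides reads shared between paralogs by estimate, so values of close relatives are less certain.

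Sex, batch and batch side (batches 4 and 6 minus 2 and 3) were tested over all 17250 genes with limma 3.58.1 in R 4.3.3, with batch as a factor and sex as a term, and Benjamini-Hochberg adjustment at 0.05. The fits were tested on simulated data. Correlations used residuals on sex and batch and 100000 two-sided permutations within batch; the rat of batch 5 was left out. For r without 2 rats, those farthest from the median of the first gene were dropped. Genes were named if they led in the sex, batch or side test, in SD or as class highest or lowest, were listed for PL alone, or were in the 12 pairs. The members, lists and contrasts were chosen with earlier results of these data known. Depth per library is known only as adjusted counts. Gene classes are hand-assigned.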

Additional observations from a re-analysis of the deposited data

How the results depend on the processing

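No paired analysis was possible because each rat gave 1 library and has 1 sex and 1 batch. Direction under the alternatives was checked for the 5 members with the smallest p for sex and the 28 that passed between batch sides. It was also checked for the 4 known pairs that passed. Other differences of single members were not checked, and the batch F-test has no direction. No difference or pair that was checked changed direction. Values near 0 did: on raw log2 values r of Slc22a6 with Dcn was 0.107, the members' median batch side difference was -0.0082 in females only, and their median sex difference 0.0017 with no batch term. The number of members called for sex was 0 under every alternative except leaving out the 4 rats of batch 3 low in 5.8S rRNA, chosen after seeing the data, which gave 1 (Slc22a6, limma adjusted p = 0.0274; 0.112 to 0.485 under the other alternatives). With females only, 16 members were called between batches (36.1% of all genes) and 17 between batch sides (35.2%), and with males only 21 between batches (42.6%) and 18 between sides (41%), with fewer rats in each fit. Of the single members called, 65 comparisons lost their call, most of them in fits of 1 sex or without batch 2, and 1 gained it. On raw log2 values, which keep the batch differences, 435 pairs of members and 82 pairs of a member and a marker passed. Without the 4 rats 21 pairs with a marker passed; the cause was not tested. With means 3 component SDs apart, 1 member (Slc4a8) had 2 levels. Median-of-ratios scaling moved the median of all genes between batch sides by 0.00188. The 12 members with a mean log2 value under 5 have few reads, which limits what differences could be detected. Other transporter genes, and Slc4a5 with Ttr, were not run, since no identifier could be matched to their names.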
